A study of Mus musculus with 12 samples.

Results

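Chemokine receptors are the 9 genes Ccr7, Cxcr5, Cxcr3, Cxcr4, Ccr2, Ccr4, Ccr6, Ccr8 and Ccr9, taken by symbol from an array data set of regulatory T cells (Tregs) of lymph nodes, and all 9 of 9 had a row among the 19505 genes measured. Each had 1 row, so no choice between rows was needed. The arrays compared 6 mice of the NOD strain, in which autoimmune diabetes arises without treatment, with 6 NOD.Drak2-/- mice, which lack the kinase Drak2 on that background. All 12 mice were female and 4 to 8 weeks old, the labels give no treatment, and each array held the cells of 1 mouse. The cells had been sorted as CD4-positive, CD8-negative and CD25-positive with low CD45RB; the antibodies listed in the protocol are those to CD4, CD8 and CD45RB. Drak2, encoded by Stk17b, is a serine/threonine kinase known to dampen signals of the T cell receptor, and the labels name no promoter or cell type for its loss, so the other cells of these mice may lack it too. Replicates were numbered 1 to 6 in NOD and 1 to 5 and 7 in NOD.Drak2-/-.

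Chemokine receptors are G protein-coupled receptors that steer lymphocytes along gradients of secreted chemokines. Ccr7 holds T cells in the lymph node, Cxcr5 leads them into the B cell follicle, and Cxcr4 serves retention in marrow and other niches. Cxcr3, Ccr2, Ccr4, Ccr6, Ccr8 and Ccr9 are known for bringing effector and tissue T cells to inflamed tissue, skin or gut, and Tregs that leave the resting state are known to trade Ccr7 for such receptors. In bulk samples such as these, fewer cells that carry a receptor and less RNA per cell cannot be told apart.

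The values are the deposited log2 values, and levels of different genes were not set against each other, because probes differ in brightness. Each level was instead set against the 23 background rows of the array, whose probes match no mouse sequence; the brightest averaged 5.87 (log2), and 58.3% of all genes averaged below it. On single arrays the brightest background row ran from 5.51 to 6.77, and it was highest in NOD.Drak2-/- replicates 1 (6.52) and 2 (6.77). Of 14 Treg markers 12 had a row and 11 were above background, led by Izumo1r (folate receptor 4), while Foxp3 had no named row and was not analysed here and Il2ra, which encodes CD25, averaged 4.82 in NOD and 5.00 in NOD.Drak2-/-, in the background range. Of the markers of other cells, 1 of 9 B cell genes (Cd79b), 1 of 11 myeloid and dendritic genes (Cst3), 0 of 4 NK cell genes, of which Klrd1 was the brightest, 1 of 2 CD8 T cell genes (Cd8b1) and 2 of 7 stromal and endothelial genes, led by Pecam1, were above background. All 5 measured T cell markers were, Cd3d the brightest. Stk17b itself averaged 10.52 in NOD and 10.25 in NOD.Drak2-/- (log2 difference -0.27, adjusted p = 0.517 in limma), and the sources used here do not say whether its probes lie in the deleted part, so it does not check the labels.

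No receptor gene passed the test between the genotypes. With limma across all genes and Benjamini-Hochberg adjustment, 0 of 9 receptors had an adjusted p under 0.05, where 4 of all 19505 genes did (0.0205%). At an unadjusted p under 0.05 there was 1 of 9, Cxcr5, beside 9.43% of all genes (3.74% higher and 5.69% lower in NOD.Drak2-/-), so the share is near the background. The 2 genotypes overlapped for all 9 receptors, whereas 0.513% of all genes had groups that did not overlap. Of the 9 log2 differences (NOD.Drak2-/- minus NOD) 6 were positive and 3 negative, with a median of 0.05 beside -0.02 over all genes. The arrays come from separate mice per the labels, so the spread is that between mice.

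**Figure D1:**
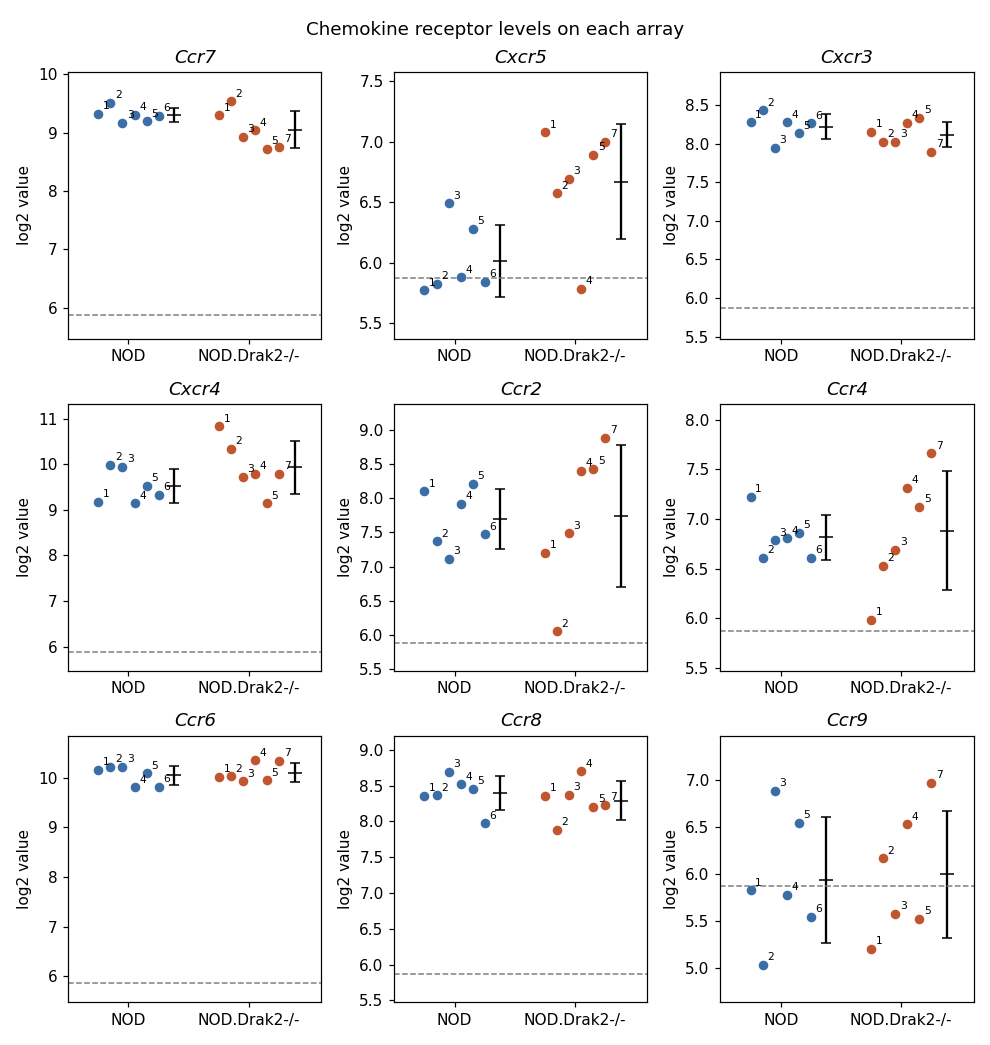
Log2 value (vertical axis, a range of its own in each panel) of the 9 receptor genes on each of the 6 NOD (blue) and 6 NOD.Drak2-/- (orange) arrays, numbered by replicate, with the mean and SD of each genotype in black and the brightest background row (5.87) as a dashed line. The points of the genotypes overlap in every panel, and Cxcr5 has 5 of 6 NOD.Drak2-/- points above all NOD points.

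Cxcr5, the receptor for the follicular chemokine Cxcl13, had the largest difference of the 9. Its log2 value ran from 5.77 to 6.49 with a median of 5.86 in NOD and from 5.78 to 7.08 with a median of 6.79 in NOD.Drak2-/-. Replicates 1, 2, 3, 5 and 7 of NOD.Drak2-/- lay above all 6 NOD arrays, and replicate 4 (5.78) lay among the lowest NOD values. The means were 6.02 ± 0.30 and 6.67 ± 0.47 (SD, n = 6 each), a log2 difference of 0.65 (SE 0.20, 95% interval 0.23 to 1.08), or 1.57-fold. The adjusted p was 0.469 in limma. Exact permutation of the arrays (two-sided) gave p = 0.0216, and the smallest p it can give is 0.00216. Without NOD.Drak2-/- replicate 4 the difference was 0.83 (adjusted p = 0.155 in limma). As that array held the lowest Cxcr5 value of its genotype, leaving it out was bound to raise the difference. Leaving out any other single array gave from 0.57 (without NOD.Drak2-/- replicate 1) to 0.75 (without NOD replicate 3). Only 3 of 6 NOD arrays had Cxcr5 above their own brightest background row, and 5 of 6 NOD.Drak2-/- arrays did, so the NOD level is in part a bound set by background.

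B cells also express Cxcr5. The mean of the 9 measured B cell markers ran from 4.62 to 5.01 in NOD and from 4.56 to 5.39 in NOD.Drak2-/- (exact permutation p = 0.955, two-sided). With that mean as a covariate the difference of Cxcr5 was 0.66 (adjusted p = 0.504 in limma). Only 1 of the 9 markers was above background, so the mean mostly holds background signal. It cannot tell how many B cells an array held, and neither value decides their part. NOD.Drak2-/- replicates 1 and 5, with Cxcr5 at 7.08 and 6.89, had a B cell mean of 4.56 each, at the low end, as did replicate 4, whose Cxcr5 was the lowest of its genotype. Of the defining markers, only Cd79b, a subunit of the B cell receptor, was above background, at 5.89 ± 0.25 in NOD and 6.37 ± 0.18 in NOD.Drak2-/-. Its log2 difference was 0.48 (unadjusted p = 0.00215 and adjusted p = 0.436 in limma, exact permutation p = 0.00866, two-sided). Like Cxcr5 it was higher in NOD.Drak2-/-, with 6 of 6 arrays above the NOD mean. Cd79b was above the array's own brightest background row on 3 of 6 NOD and 4 of 6 NOD.Drak2-/- arrays. In the background range, Pax5, Ebf1 and Blk had log2 differences of -0.54, -0.46 and -0.30 (unadjusted p = 0.0464, 0.146 and 0.0134, adjusted p = 0.526, 0.639 and 0.481 in limma). Cd22, Fcrla and Cd79a, in that range too, differed by 0.41, 0.37 and 0.08 (unadjusted p = 0.0527, 0.216 and 0.733, adjusted p = 0.535, 0.692 and 0.925 in limma). Ms4a1 and Cr2 differed by -0.11 and 0.0019. The part of B cells in the Cxcr5 difference was not tested.

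Ccr7, the lymph node homing receptor, was well above background on all 12 arrays. It ran from 9.17 to 9.51 with a median of 9.29 in NOD and from 8.73 to 9.54 with a median of 8.98 in NOD.Drak2-/-. Replicates 3, 4, 5 and 7 of NOD.Drak2-/- lay below all 6 NOD arrays, and replicate 2 lay above them all. The log2 difference was -0.25 (SE 0.14, 95% interval -0.54 to 0.05; adjusted p = 0.584 in limma; exact permutation p = 0.104, two-sided). Without NOD.Drak2-/- replicates 1 and 2, the arrays with the brightest background rows, it was -0.43 (unadjusted p = 0.00204, adjusted p = 0.476 in limma). This setting was added with the values in view. Those arrays held the highest Ccr7 values of their genotype, so leaving them out was bound to lower the difference. Over all 23 fits other than the main one, the difference ran from -0.43 to -0.18 (median centring, unadjusted p = 0.204 in limma). Its unadjusted p was under 0.05 in 4 of them.

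Cxcr4, the receptor for the stromal chemokine Cxcl12, ran from 9.15 to 9.99 in NOD (median 9.44) and from 9.15 to 10.83 in NOD.Drak2-/- (median 9.79). NOD.Drak2-/- replicates 1 and 2 (10.83 and 10.34) lay above all NOD arrays. Replicates 3, 4 and 7 lay within the NOD range, and replicate 5 (9.15) met its lower end. The log2 difference was 0.41 (SE 0.24, 95% interval -0.09 to 0.92; adjusted p = 0.596 in limma; exact permutation p = 0.175, two-sided). Leaving out single arrays moved it between 0.23, without NOD.Drak2-/- replicate 1, and 0.57, without NOD.Drak2-/- replicate 5 (unadjusted p = 0.0212, adjusted p = 0.641 in limma). Without both replicates 1 and 2, a setting added with the values in view, it was 0.09. With the mean of 11 myeloid and dendritic markers as a covariate it was 0.29 (adjusted p = 0.669 in limma). That mean was highest in NOD.Drak2-/- replicate 1. Only 1 of the 11 markers, Cst3, was above background, so the mean says little about such cells. Their part in the Cxcr4 difference was not tested. Cxcr4 lies on chromosome 1, as does Stk17b, and 5 of the 9 receptors, Cxcr5 among them, lie on chromosome 9. The distance between Cxcr4 and Stk17b was not examined.

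**Figure D2:**
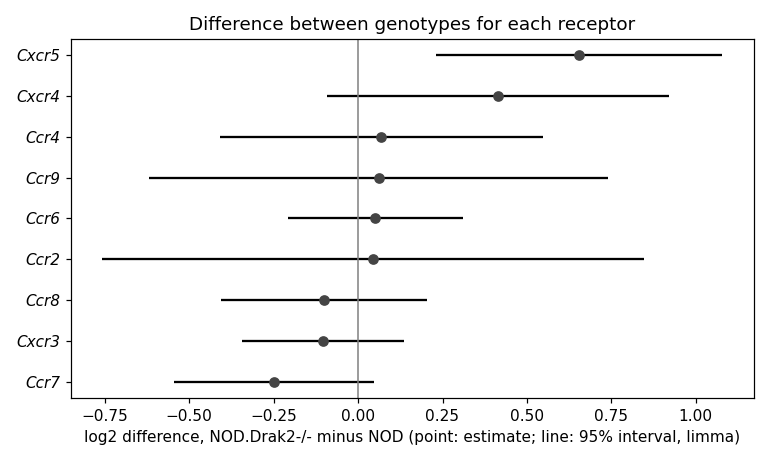
Log2 difference between NOD.Drak2-/- and NOD (horizontal axis) for each receptor gene, with the 95% interval from limma (6 arrays per genotype). The interval of Cxcr5, 0.23 to 1.08, lies above 0, and those of the other 8 genes include 0.

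Cxcr3, Ccr6 and Ccr8 were the steadiest receptors of effector Tregs. Cxcr3, which senses interferon-induced chemokines, averaged 8.22 ± 0.16 in NOD and 8.12 ± 0.16 in NOD.Drak2-/- (SD, n = 6 each), with a log2 difference of -0.10 (95% interval -0.34 to 0.14). Ccr6, the receptor for Ccl20 on gut and Th17-type cells, averaged 10.05 ± 0.19 and 10.10 ± 0.19, a difference of 0.05 (95% interval -0.21 to 0.31). Ccr8, a receptor known from tissue and tumour Tregs, averaged 8.39 ± 0.24 and 8.29 ± 0.27, a difference of -0.10 (95% interval -0.41 to 0.20). Their adjusted p-values were 0.781, 0.909 and 0.838 in limma. For these 3 genes the intervals leave out changes of more than 0.41 in either direction on the log2 scale.

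Ccr2, Ccr4 and Ccr9 varied widely between mice, and their mean differences were near 0. Ccr2, the receptor for the monocyte chemoattractant Ccl2, ran from 7.11 to 8.22 with a median of 7.70 in NOD and from 6.05 to 8.89 with a median of 7.95 in NOD.Drak2-/-. Replicates 4, 5 and 7 of NOD.Drak2-/- (8.41, 8.43 and 8.89) lay above all NOD arrays, replicate 2 (6.05) lay below them all, and replicates 1 and 3 lay within the NOD range. On replicate 2 the value was also below the brightest background row of that array. Its log2 difference was 0.04 (95% interval -0.76 to 0.85; adjusted p = 0.974 in limma), with a sign that quantile normalization turned. Without NOD.Drak2-/- replicates 1 and 2 it was 0.61 (unadjusted p = 0.0394, adjusted p = 0.604 in limma). That setting was added with the values in view, and those arrays held the lowest Ccr2 values of their genotype. Leaving them out was thus bound to raise the difference. Myeloid cells also carry Ccr2; the mean of their 11 measured markers ran from 4.65 to 4.97 in NOD and from 4.70 to 5.16 in NOD.Drak2-/-, with only Cst3 above background, and their part in the Ccr2 values was not tested.

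Ccr4, the receptor for Ccl17 and Ccl22 on skin-homing T cells and Tregs, ran from 6.61 to 7.22 in NOD (median 6.80) and from 5.99 to 7.66 in NOD.Drak2-/- (median 6.91). NOD.Drak2-/- replicates 4 and 7 (7.32 and 7.66) lay above all NOD arrays and replicates 1 and 2 (5.99 and 6.53) below them. In Ccr4 as in Ccr2, NOD.Drak2-/- replicates 4, 5 and 7 (7.12 to 7.66 and 8.41 to 8.89) lay above replicates 1, 2 and 3 (5.99 to 6.69 and 6.05 to 7.49). The labels used here name no batch of the arrays. On replicates 1 and 2 Ccr4 was below the brightest background row of the array, and on the other 10 it was above. The log2 difference was 0.07 (95% interval -0.41 to 0.55, adjusted p = 0.934 in limma). It was 0.38 without replicates 1 and 2 (unadjusted p = 0.0499, adjusted p = 0.614 in limma), a setting added with the values in view. As these arrays held the lowest Ccr4 values of their genotype, leaving them out was bound to raise the difference. Ccr9, the receptor for gut Ccl25, ran from 5.04 to 6.88 in NOD and from 5.21 to 6.97 in NOD.Drak2-/- and was above the array's own brightest background row on 3 of 6 and 2 of 6 arrays, so much of it is not clear of background. Its difference was 0.06 (95% interval -0.62 to 0.74; adjusted p = 0.96 in limma).

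The receptors differed in how much they varied between mice of 1 genotype. The SD around the genotype means was 0.80 for Ccr2 and 0.67 for Ccr9, larger than for 99.8% and 99.0% of the 8128 genes whose mean was above background. Cxcr4 (0.49), Ccr4 (0.46) and Cxcr5 (0.40) stood above 93.7%, 91.6% and 84.7% of these genes. Cxcr3 (0.16) and Ccr6 (0.19) stood above 14.4% and 23.6%, and Ccr7 (0.24) and Ccr8 (0.25) above 43.0% and 47.8%. This ranking is a description of these 12 arrays.

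All 9 receptors had a larger SD in NOD.Drak2-/- than in NOD, where 55.2% of the 8128 genes did, and for Cxcr3, Ccr6 and Ccr9 the SDs were nearly the same. The SD of Ccr4 was 0.22 in NOD and 0.60 in NOD.Drak2-/-, that of Ccr2 0.44 and 1.05, and that of Ccr7 0.12 and 0.32. Two-sided exact permutation tests of the absolute deviations from the genotype median, added after the values had been seen, gave unadjusted p = 0.0303 for Ccr4, p = 0.0346 for Ccr2 and p = 0.0758 for Ccr7, and p-values from 0.55 to 0.885 for the other 6. This test was run for the receptors only. The share of all genes under 0.05 in it is not known, so the receptors cannot be set against other genes here. NOD.Drak2-/- replicates 1 and 2, which had the brightest background rows, held the lowest value of Ccr4 and of Ccr2, respectively; the part of background in this spread was not tested.

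Of the pairs of receptors, Ccr2 and Ccr4 had the highest correlation between arrays and Ccr7 and Ccr2 the lowest, and none passed the test. Correlations were computed on deviations from the genotype mean over 12 arrays for all 36 pairs of receptors, with 100000 permutations within genotype, and 0 of 36 passed after Benjamini-Hochberg adjustment; 6 pairs had an unadjusted p under 0.05, 3 of them positive. An r of at least 0.6 in either direction was found in 7 of the 36 pairs (19.4%) and in 12.2% of all pairs of the 8128 genes above background, which share the same arrays. The smallest adjusted p of Pearson's r was 0.291. For Ccr2 and Ccr4, Pearson's r was 0.77 (permutation p = 0.0243, adjusted p = 0.291) and Spearman's rho 0.86 (permutation p = 0.0051, adjusted p = 0.184). Within NOD r was 0.63 and within NOD.Drak2-/- 0.79, and without the 2 arrays farthest from the median of Ccr2 it was 0.81 (permutation p = 0.00979, adjusted p = 0.175).

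For Ccr7 and Ccr2, Pearson's r was -0.80 (permutation p = 0.0144, adjusted p = 0.291) and Spearman's rho -0.60 (permutation p = 0.0929, adjusted p = 0.478). The relation was seen within NOD.Drak2-/- (r = -0.90) and hardly within NOD (r = -0.14), and without the 2 arrays farthest from the median of Ccr7 r was -0.55 (permutation p = 0.208, adjusted p = 0.68), so the unadjusted p under 0.05 rests on those arrays. For Cxcr3 and Ccr9, r was -0.70 (permutation p = 0.0191, adjusted p = 0.291) and rho -0.58 (permutation p = 0.067, adjusted p = 0.478), and r was -0.38 without the 2 arrays farthest from the median of Cxcr3 (permutation p = 0.291). For Cxcr4 and Ccr2, r was -0.64 (permutation p = 0.0598, adjusted p = 0.307) and rho -0.58 (permutation p = 0.061, adjusted p = 0.478), with -0.70 within NOD and -0.64 within NOD.Drak2-/-, and r was -0.64 again without the 2 arrays farthest from the median of Cxcr4 (permutation p = 0.025, adjusted p = 0.225). The other 3 pairs at an unadjusted p under 0.05 were Cxcr4 with Ccr4, Ccr4 with Ccr9 and Ccr7 with Cxcr4. For Cxcr4 and Ccr4, r was -0.67 (permutation p = 0.0463, adjusted p = 0.294), rho -0.50 (permutation p = 0.125, adjusted p = 0.532) and r without the 2 outermost arrays -0.46 (permutation p = 0.163). For Ccr4 and Ccr9, r was 0.60 (permutation p = 0.0485, adjusted p = 0.294), rho 0.55 (permutation p = 0.0912, adjusted p = 0.478) and r without 2 arrays 0.26 (permutation p = 0.451). For Ccr7 and Cxcr4, r was 0.67 (permutation p = 0.0491, adjusted p = 0.294), rho 0.41 (permutation p = 0.219, adjusted p = 0.612) and r without 2 arrays 0.58 (permutation p = 0.164). A shared background or quality of an array would enter both genes of a pair, and its part was not tested.

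**Figure D3:**
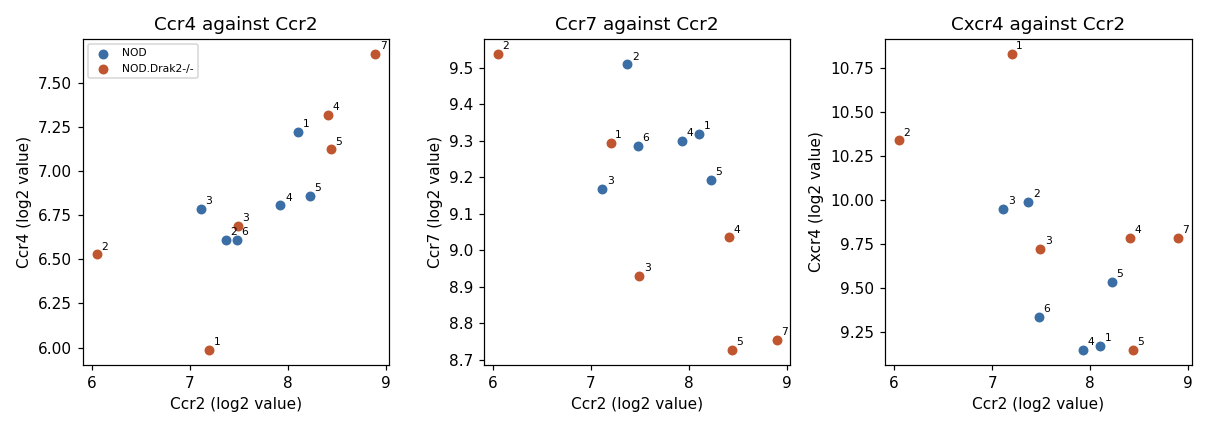
Log2 value of Ccr4, Ccr7 and Cxcr4 (vertical axes) against that of Ccr2 (horizontal axis) on 6 NOD (blue) and 6 NOD.Drak2-/- (orange) arrays, numbered by replicate. NOD.Drak2-/- replicates 4, 5 and 7 have Ccr2 from 8.41 to 8.89, and replicate 2, at 6.05, has the highest Ccr7 value (9.54).

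**Figure D4:**
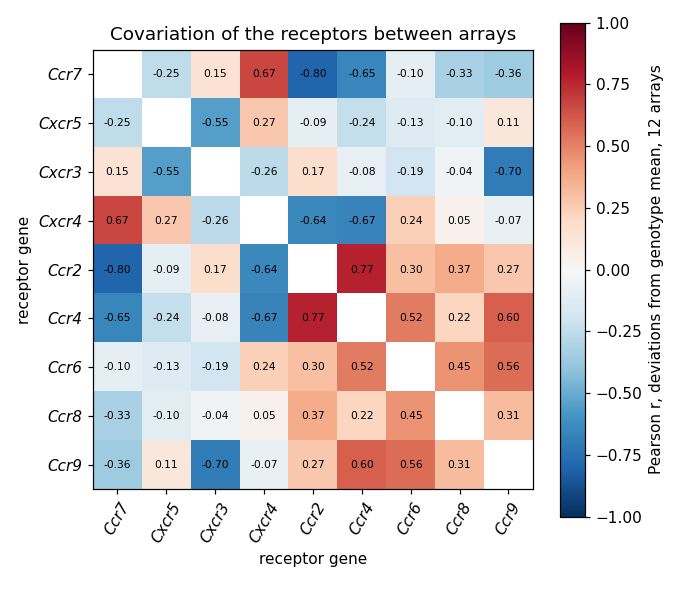
Pearson's r between each pair of the 9 receptors (both axes) over 12 arrays after the genotype mean was removed, as colour and number. Values run from -0.80 (Ccr7 and Ccr2) to 0.77 (Ccr2 and Ccr4), and 0 of 36 pairs passed after adjustment.

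Promoter sequences were at hand for 7 of the 9 receptors in a RefSeq table of assembly GRCm38.p6, matched by symbol; Ccr7 and Cxcr5 had no entry. The 250 bases before the transcript start are printed 5′ to 3′ on the strand of the gene for Ccr2 and Ccr4, the pair with the highest correlation, and for Cxcr4, whose correlation with both was negative. They lie at chr9:124101933-124102182 (plus strand), chr9:114496545-114496794 (minus strand) and chr1:128592300-128592549 (minus strand). Capitals mark matches, on either strand, to any of 7 motifs of factors listed below: CACCC (Klf2), GTAAACA (Foxo1), TCACACC (Tbx21), CAGCTG (Ascl2), TGANTCA (Batf with its partners), TGTGGT (Runx3) and TTCNNNGAA (Bcl6).
Ccr2: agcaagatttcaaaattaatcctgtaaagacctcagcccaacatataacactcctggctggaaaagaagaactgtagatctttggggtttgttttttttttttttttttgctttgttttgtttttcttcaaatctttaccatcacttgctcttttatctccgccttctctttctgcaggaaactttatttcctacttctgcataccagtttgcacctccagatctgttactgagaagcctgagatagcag
Ccr4: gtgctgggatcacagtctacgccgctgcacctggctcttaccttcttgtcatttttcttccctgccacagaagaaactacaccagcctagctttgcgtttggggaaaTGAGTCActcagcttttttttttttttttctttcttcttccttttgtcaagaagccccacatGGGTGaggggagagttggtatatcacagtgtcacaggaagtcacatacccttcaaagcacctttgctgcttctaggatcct
Cxcr4: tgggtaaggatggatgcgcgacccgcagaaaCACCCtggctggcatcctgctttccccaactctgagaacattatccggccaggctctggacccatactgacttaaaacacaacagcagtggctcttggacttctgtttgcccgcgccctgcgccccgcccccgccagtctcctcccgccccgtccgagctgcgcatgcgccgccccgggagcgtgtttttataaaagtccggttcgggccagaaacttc
The Ccr2 window held none of the 7 motifs. The Ccr4 window held 1 match to TGANTCA, which starts 143 bases before the transcript start and occurs in 6.75% of the 32851 promoter windows of that length, and 1 to CACCC, which occurs in 52.0% of them. The Cxcr4 window held 1 match to CACCC, 219 bases before the start. Among the other 4 matched receptors, CACCC was present for Ccr8 and Ccr9, TGTGGT (14.0% of windows) for Cxcr3 and TTCNNNGAA (7.02%) for Ccr6. GTAAACA (3.17%), TCACACC (3.33%) and CAGCTG (13.0%) were found for 0 of 7. No overlap between motifs was met in the windows shown, and a match is only a run of letters.

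The genes that varied most like each receptor were sought among the 8128 genes above background, by Pearson's r of deviations from the genotype mean over 12 arrays. For Ccr2 they were Icos (0.93), Sfxn1 (0.91) and S100a10 (0.91), the first a costimulatory receptor of activated T cells and the last an annexin partner. For Ccr4 they were Ptger2 (0.93), a prostaglandin E2 receptor, Sec11c (0.91) and Abhd18 (0.90). For Ccr7 they were Gm10100 (0.94), Pck2 (0.94) and Otop2 (0.92), and for Cxcr5 Cradd (0.91), Iqcc (0.89) and Ubfd1 (0.89).

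The other receptors had closest genes of like r. They were Tgfbrap1, Itprip and Insl6 for Cxcr4 (0.88 to 0.89), Psph, Trio and Syt3 for Cxcr3 (0.85 to 0.87), Sec63, Twistnb and Wtip for Ccr6 (0.90 to 0.91), Tfb2m, Rab1b and Zfp932 for Ccr8 (0.93 to 0.95), and Yme1l1, Ltn1 and Cd82 for Ccr9 (0.89 to 0.90). With so many genes and 12 arrays such values are ordinary: over the 8128 genes the highest r of a gene with any other had a median of 0.92, with 0.85 and 0.97 as the 5th and 95th percentiles. The highest r of each receptor lay within those bounds.

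Among 14 other chemokine receptors 0 passed in limma. None (0 of 14) reached an unadjusted p under 0.05, and their median log2 difference was -0.01. Only 2 of the 14, Ccr10 and Cxcr6, were above background in a genotype. Cxcr6, a receptor of tissue-resident T cells whose gene lies between Ccr9 and Ccr2 in the receptor cluster of chromosome 9, averaged 6.36 in NOD and 6.32 in NOD.Drak2-/-. The 2 smallest p-values were those of Cx3cr1 (log2 difference 0.33, adjusted p = 0.535) and the scavenging receptor gene Ackr3 (-0.30, adjusted p = 0.607), both in the background range.

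Of the 18 genes for ligands of the 9 receptors, 0 passed in limma and 3 (Ccl21a, Cxcl12 and Ccl25) were above background in a genotype. At an unadjusted p under 0.05 there were 4 of 18, 1 positive and 3 negative, beside 9.43% of all genes. Cxcl13, the ligand of Cxcr5, averaged 3.54 in NOD and 4.32 in NOD.Drak2-/- (log2 difference 0.78, adjusted p = 0.469), in the background range on all 12 arrays. Its 6 NOD values ran from 3.46 to 3.63 and its NOD.Drak2-/- values from 3.47 to 5.01. Cxcl11 (-0.39, adjusted p = 0.469), Ccl2 (-0.30, adjusted p = 0.517) and Ccl17 (-0.33, adjusted p = 0.517) were in that range too. The list had a median of -0.10.

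The machinery that carries the receptor signal was measured in 29 of 34 genes, 28 of them above background in a genotype, and showed 0 genes at an unadjusted p under 0.05 in limma. Its median log2 difference was 0.02. The largest were Ptk2b, the calcium-dependent focal adhesion kinase Pyk2 (0.42, adjusted p = 0.601), and Elmo1, the partner of Dock2 in activating Rac (0.21, adjusted p = 0.682). The inhibitory G protein subunit Gnai2, through which these receptors signal, differed by 0.03 with a 95% interval of -0.22 to 0.28, and Dock2 by 0.06.

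Of 14 transcription factors known to control these receptors 12 were measured, and 0 passed in limma. Runx3 (log2 difference 0.52, adjusted p = 0.483) and Batf (0.44, adjusted p = 0.485) had an unadjusted p under 0.05, with 6 and 5 of 6 NOD.Drak2-/- arrays higher than the mean of NOD. They were 2 of 12, both higher, beside 9.43% of all genes in either direction and 3.74% higher. With 12 genes this is no result about the list. Tbx21, the factor that drives Cxcr3, averaged 5.00 in NOD and 5.07 in NOD.Drak2-/- and was in the background range. Klf2, which favours recirculation, differed by 0.17 and Foxo1, which sustains Ccr7, by 0.03.

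The follicular T cell genes other than Cxcr5 gave 0 of 13 at an unadjusted p under 0.05, with a median log2 difference of 0.03. The smallest p-values were those of Maf (0.38, adjusted p = 0.535 in limma), a factor of follicular helper cells, and Tox (0.28, adjusted p = 0.535). Bcl6, the factor that defines follicular T cells, differed by -0.04, Pdcd1, which encodes PD-1, by -0.11 and Icos by -0.09. Cd200, Il21 and Id3 differed by 0.27, 0.33 and 0.20 (adjusted p = 0.540, 0.566 and 0.709 in limma), with Il21 in the background range. For Cd200, 5 of 6 NOD.Drak2-/- arrays lay above all NOD arrays (exact permutation p = 0.0455, two-sided). In all, 7 of the 13 had a positive difference.

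**Figure D5:**
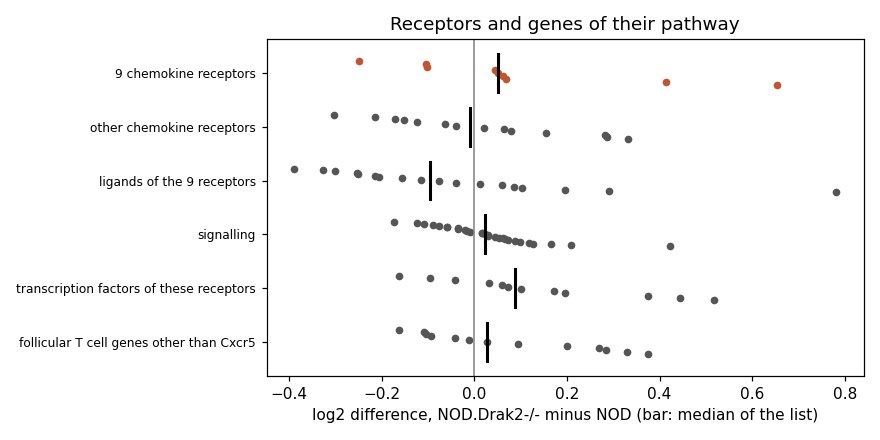
Log2 difference between NOD.Drak2-/- and NOD (horizontal axis) of the 9 receptors (orange) and of 5 lists of pathway genes (grey), 1 point per gene, with the median of each list as a bar. Medians lie between -0.10 and 0.09, and Cxcr5 (0.65) and Cxcl13 (0.78) are the points farthest to the right.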

How the data were processed

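The deposited values, on a log2 scale from 1.49 to 12.8, were made by the authors with RMA and the R package oligo, per the submitters' processing notes; no version is given in the sources used here. RMA makes the distributions of arrays alike, so a true shift shared by all genes cannot be seen. The medians of the 19505 genes still ran from 5.18 to 5.34 between arrays. Centring them moved every difference up by 0.066. With it Cxcr3 and Ccr8 each stood at -0.04, and the median difference of the receptors at 0.12. Arrays give no counts, so precision is limited by their number. Of 29129 rows, 19572 carried 1 gene symbol, and the brightest row per gene left 19505 genes. The labels gave the groups. The genotypes were compared with limma 3.58.1 (R 4.3.3; lmFit, eBayes, no covariate), with Benjamini-Hochberg adjustment over all genes and a threshold of 0.05; adjusted p-values of genes come from this fit unless stated. Permutation tests between genotypes enumerated all 924 regroupings of the arrays, and those of correlations drew 100000. The fit was tested on simulated data: with 200 of 19505 genes changed, 36% of log2 differences of 0.5 were recovered and 86% of 1. Some of the 200 were given larger differences than these, which eases the adjusted threshold. Noise was drawn for each gene on its own, without the covariation between genes seen here. The shares belong to that setting and may be too high for these data, where 4 genes passed.

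The members and the lists were chosen with earlier results of these data known. Named were the 9 receptors, Stk17b, and of each list the genes at an unadjusted p under 0.05 or otherwise the 2 smallest p-values. Also named were the 3 genes most like each receptor, and the brightest gene of each marker list with Il2ra and Foxp3. Others were chosen after their values were seen. These were Cxcr6, Ccr10, Gnai2, Dock2, Tbx21, Klf2, Foxo1, Bcl6, Pdcd1, Icos, Cd200, Il21 and Id3. The ligand genes Ccl21a, Cxcl12 and Ccl25 and the B cell genes other than Cd79b were so chosen too. Alternatives covered scaling, the row per gene, dim genes, the eBayes settings, array weights, a replicate block, marker covariates and each array left out.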

Additional observations from a re-analysis of the deposited data

Results flagged for a closer look

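Stk17b, the targeted gene, was lowest in NOD.Drak2-/- replicate 2, at 9.97, and its gap to the next array took 0.628 of the range of that genotype, above the critical value for 6 samples. It was 1 of 62 groups of 6 arrays examined in this way, and chance alone marks about 1 in 20.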

How the results depend on the processing

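Over 21 other settings and 2 more that were added with the values in view, 0 of 9 receptors passed in limma, with adjusted p-values of 0.155 and above. In these 23 fits Cxcr5 differed by 0.55 to 0.83, with an unadjusted p under 0.05 in each, and Ccr7, Cxcr3, Cxcr4, Cxcr5 and Ccr8 kept their direction. The signs of Ccr2, Ccr4, Ccr6 and Ccr9 were not settled. Ccr2 was at -0.0032 with quantile normalization, and Ccr9 at -0.088 with array weights. With the replicate block Ccr2, Ccr4, Ccr6 and Ccr9 were at -0.23, -0.13, -0.043 and -0.21, the median of the receptors was -0.13, and 0 genes passed by limma (1519 had an unadjusted p under 0.05). The labels do not say whether equal numbers pair the mice. Correlations of same-numbered arrays lay between -0.29 and 0.15. They were not compared with those of differently numbered arrays, so they do not settle whether the mice were paired. Leaving out 1 array moved Ccr2 between -0.18 and 0.38, Ccr4 between -0.087 and 0.25, and Ccr9 between -0.13 and 0.25. It left 1 to 2 genes past the threshold and 1 to 2 receptors at an unadjusted p under 0.05, beside 1347 to 2538 of all genes. The count of 4 genes past the threshold became 1 with the B cell mean or the myeloid mean as a covariate, 1 with the brightest background row as a covariate and 2 with NOD.Drak2-/- arrays 1 and 2 left out. Receptors at an unadjusted p under 0.05 numbered 2 with array weights, beside 1530 of all 19505 genes. They numbered 2 with the background covariate (1583 of all genes), which moved the median of the receptors to 0.22. With NOD.Drak2-/- arrays 1 and 2 left out they numbered 4 (Ccr7, Cxcr5, Ccr2 and Ccr4), beside 1584 of all genes. Those arrays held the highest NOD.Drak2-/- values of Ccr7 and the lowest of Ccr2 and Ccr4. For Cxcr5 and Ccr9, signal near the background rows limits the precision.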
